A study of Mus musculus with 2 samples.

Results

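The 10 genes described here are the endothelial Notch ligands Dll4, Jag1 and Jag2, the receptors Notch1 and Notch4, the DNA-binding mediator Rbpj, the target genes Hes1, Hey1 and Hey2, and the related factor Hes6. They were taken by gene symbol from a table of 53465 mouse genes, and all 10 were found. Expression was profiled in endothelial cells isolated from C57Bl/6 mice of the tie2-cre genotype that were treated with NeuroD1 (1 library) or with GFP (1 library). Both groups thus carry the Cre recombinase under the Tie2 promoter, which is known to act in blood cell lineages as well as in endothelium. The protocol names cells of 3 mice and 10000 lysed cells, so a library may pool animals. Vector, dose, time, age and stroke status are not given in the labels used here. With 1 library a group no difference below has a replicate check, no p-value is given, and intervals cover counting error only.

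Notch signalling passes between touching cells. A ligand of the Delta-like or Jagged kind on one cell binds a Notch receptor on its neighbour, the receptor is cut by ADAM proteases and gamma-secretase, and its intracellular part joins Rbpj on DNA to switch on genes such as Hes1, Hey1 and Hey2, which encode transcriptional repressors. In blood vessels the pathway is known for restraining sprouting, where Dll4 on the leading tip cell acts through Notch1 on its neighbours, and for arterial identity. NeuroD1 is a neuronal transcription factor of the bHLH class, which binds E-box sequences.

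Promoter sequence is shown for Notch1 and Dll4, because they had the largest differences between the libraries in each direction, and for Hey2, because it is a target gene whose window holds the core letters bound by Rbpj. The sequences are RefSeq's (GRCm38.p6), 5′ to 3′ on the gene's own strand, from 250 bases before the annotated start through the first 30 transcribed bases. Capitals mark TGGGAA, the Rbpj core, on either strand (TTCCCA on the other), and the E-box CANNTG, which reads alike on both strands.
Notch1, chr2:26503793-26504072, minus strand: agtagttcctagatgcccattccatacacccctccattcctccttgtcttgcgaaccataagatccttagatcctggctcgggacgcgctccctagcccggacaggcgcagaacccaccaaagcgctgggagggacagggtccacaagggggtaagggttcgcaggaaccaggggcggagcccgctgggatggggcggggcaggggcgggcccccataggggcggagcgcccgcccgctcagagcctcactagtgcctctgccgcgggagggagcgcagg
Dll4, chr2:119325534-119325813, plus strand: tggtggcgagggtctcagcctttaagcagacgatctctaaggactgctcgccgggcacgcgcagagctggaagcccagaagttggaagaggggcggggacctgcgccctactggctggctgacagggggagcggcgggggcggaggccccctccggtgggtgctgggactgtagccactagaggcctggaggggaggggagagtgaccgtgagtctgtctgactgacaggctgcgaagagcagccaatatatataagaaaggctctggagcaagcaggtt
Hey2, chr10:30842754-30843033, minus strand: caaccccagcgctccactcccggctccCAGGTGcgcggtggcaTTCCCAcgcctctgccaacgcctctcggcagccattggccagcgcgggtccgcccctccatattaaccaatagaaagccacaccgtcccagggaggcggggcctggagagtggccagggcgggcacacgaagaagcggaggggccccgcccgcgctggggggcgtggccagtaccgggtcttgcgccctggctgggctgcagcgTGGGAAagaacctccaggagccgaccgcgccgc
The Notch1 and Dll4 windows hold neither set of letters, while the Hey2 window holds the Rbpj core at positions -207 and -3 from the start and 1 E-box at -223. The reference held 10 windows for 8 of the 10 genes, Hes6 and Rbpj having 2 each, and Hes1 and Hey1 were not matched. The Rbpj core was present in 3 of these 10 windows, those of Rbpj and Hey2, against 23.8% of all 32851 mouse promoter windows of that length. The 2 Rbpj windows overlap, and the core at -65 in one is the same site as that at -205 in the other. By gene, only Rbpj and Hey2 of the 8 held the core. An E-box was present in 6 of 10, against 70.1% of all windows. The E-box version CAGATG, or CATCTG on the other strand, a form known from neuronal bHLH factors, was in none of the 10 and in 16.1% of all windows. Such matches are letters in a window and not sites shown to be bound.

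Whole reads could be recovered from the deposited FPKM (fragments scaled by exon length and by a factor for each library). They summed to 2001426 in the NeuroD1 library and 2011130 in the GFP library. Of these, 57.4% in NeuroD1 and 52.3% in GFP lay in the 19 genes above 1000 FPKM in one library or both. The 10 Notch genes together had 733 reads in NeuroD1 and 768 in GFP. Neurod1 stood at 182 FPKM in the NeuroD1 library and 0.664 FPKM in the GFP library, the direction the labels give. The endothelial adhesion molecule Pecam1 stood at 14.4 and 12.4 FPKM, and the tight junction protein Cldn5 at 31.5 and 33.9 FPKM, in NeuroD1 and GFP. Of 16 endothelial markers 14 lay above the olfactory receptor range defined below in both libraries.

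The Notch pathway was read in both libraries, at low to moderate levels. None of the 10 genes was at 0 in either library, and their median was 5.91 FPKM in NeuroD1 and 5.84 FPKM in GFP. All 10 were measured, meaning at 1 FPKM or more in one library or both. So were 20697 protein-coding genes, and the median of all protein-coding genes was 2.98 FPKM in NeuroD1 and 3.10 FPKM in GFP. Of olfactory receptor rows, 93.8% in NeuroD1 and 95.7% in GFP were above 0, so values above 0 do not set the Notch genes apart. Of the 10 Notch genes, Hes1 was the most abundant by FPKM in each library, and Hey2 the least. In NeuroD1 the order of levels ran Hes1, Notch1, Jag1, Jag2, Hes6, Dll4, Notch4, Hey1, Rbpj, Hey2. The exact 95% interval of the ratio of neighbours lay above 1 only between Notch1 and Jag1 (ratio 1.62, 1.24 to 2.15) and between Hey1 and Rbpj (ratio 1.67, 1.05 to 2.601). In GFP the order ran Hes1, Dll4, Jag1, Notch1, Jag2, Hes6, Notch4, Hey1, Rbpj, Hey2, and neighbours were separated only between Hes1 and Dll4 (ratio 1.497, 1.04 to 2.15) and between Notch4 and Hey1 (ratio 1.65, 1.06 to 2.67). The primers of the library method, DRUG-seq, tag transcripts at the 3' end, whereas FPKM divides by full exon length, so levels of long genes such as Notch1 may be understated against short ones such as Hes1.

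**Figure D1:**
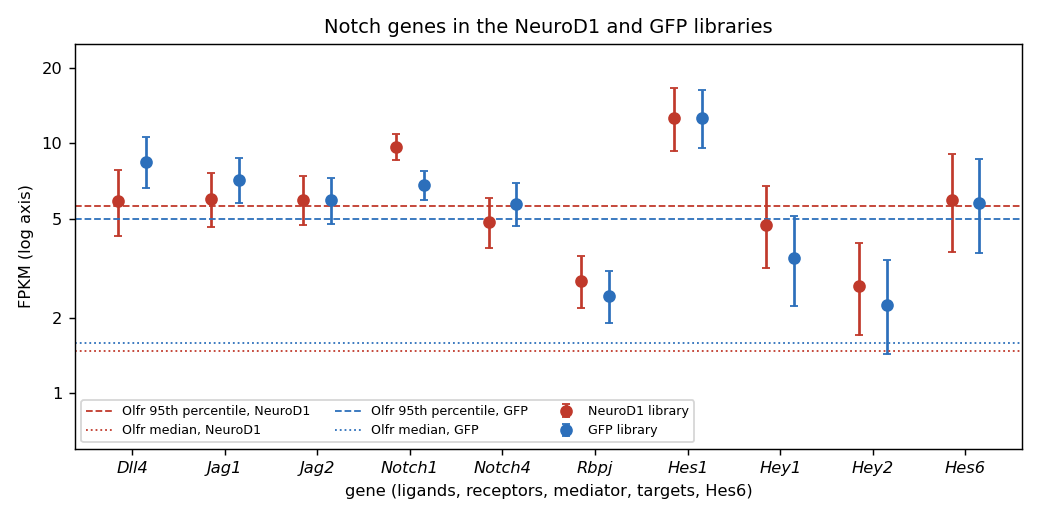
FPKM of each Notch gene (log axis) in the NeuroD1 library (red) and the GFP library (blue), with bars for the exact Poisson 95% interval of its reads. Dashed and dotted lines give the 95th percentile and the median of the olfactory receptor (Olfr) rows in each library; Hes1 stands highest, and Hey1, Hey2 and Rbpj stay under both dashed lines.

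Because several Notch genes were low, they were set against the 1406 rows of olfactory receptor genes (Olfr symbols), odour receptors with no known use in endothelium. These rows had a median of 1.48 FPKM in NeuroD1 and 1.59 FPKM in GFP, and a 95th percentile of 5.62 FPKM in NeuroD1 and 5.001 FPKM in GFP. Notch1, Dll4, Jag1, Jag2, Hes1 and Hes6 were above the 95th percentile in both libraries, which is 6 of 10, against a background of 14.8% of the other protein-coding genes. Of these, Dll4, Jag1, Jag2 and Hes6 cleared it narrowly in NeuroD1, at 5.86 to 5.98 FPKM, with counting intervals that reached below it. Notch4 was above it in GFP only, with 4.83 FPKM in NeuroD1 and 5.73 FPKM in GFP. Counted by library, 6 of 10 were above it in NeuroD1 and 7 of 10 in GFP, against backgrounds of 18.4% and 24.1%. Hey1, Hey2 and Rbpj were below it in both libraries.

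By FPKM the lowest of these stood close to the odour receptors. Hey2 was at 1.82 times the Olfr median in NeuroD1 and 1.42 times in GFP, where its counting interval (1.44 to 3.40 FPKM) included that median. Rbpj was at 1.91 times the Olfr median in NeuroD1 and 1.54 times in GFP. A gene of Rbpj's exon length at the Olfr median would hold 36.7 reads in NeuroD1 and 44.8 in GFP, and 70 and 69 were found. For Hes1 the corresponding 5.86 and 7.16 reads compare with 50 and 57 found, in NeuroD1 and GFP. These expectations take reads in proportion to full exon length. By reads alone the Olfr rows had a 95th percentile of 33 in NeuroD1 and 35 in GFP. Rbpj lay above it in both libraries, and Hey2, with 24 and 23 reads, below it.

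**Figure D2:**
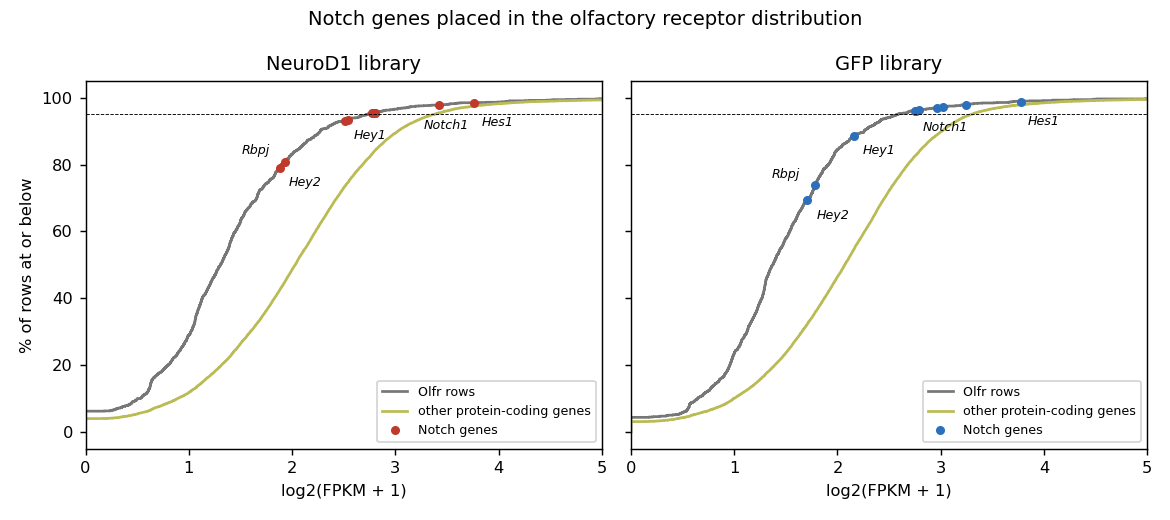
Cumulative share of olfactory receptor rows (grey) and of other protein-coding genes (olive) against log2(FPKM + 1), shown up to 5, in the NeuroD1 library (left) and the GFP library (right). Dots place the Notch genes on the grey curve; Hey2 lies above 79.1% of olfactory receptor rows in NeuroD1 and 69.3% in GFP, and Hes1 above 98.4% and 98.9%.

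The comparison asks how expression in endothelial cells differed with NeuroD1 treatment against GFP. No Notch gene passed a 2-fold difference on the log2(FPKM + 1) scale, which understates the change of low genes. That is 0 of 10 higher and 0 of 10 lower, against 2.62% higher and 3.84% lower among 20697 protein-coding genes measured. The interval of the FPKM ratio excluded 1 for 1 of 10, Notch1, against 12.1% of the 14791 protein-coding genes that had 20 reads or more over both libraries, a share near the background. Of 590 Olfr rows with as many reads, 11.0% had such an interval, so the intervals are narrower than the spread between these libraries. Differences were above 0 for 6 of 10 genes, with a median of 0.03 on the log2 scale, against 48.4% and a median of -0.02 for all protein-coding genes measured. With the FPKM sums of the libraries made equal, 3 of 10 were above 0 and the medians were -0.17 for the Notch genes and -0.19 for all protein-coding genes measured. In bulk cells, fewer cells of a type and less RNA per cell cannot be told apart.

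**Figure D3:**
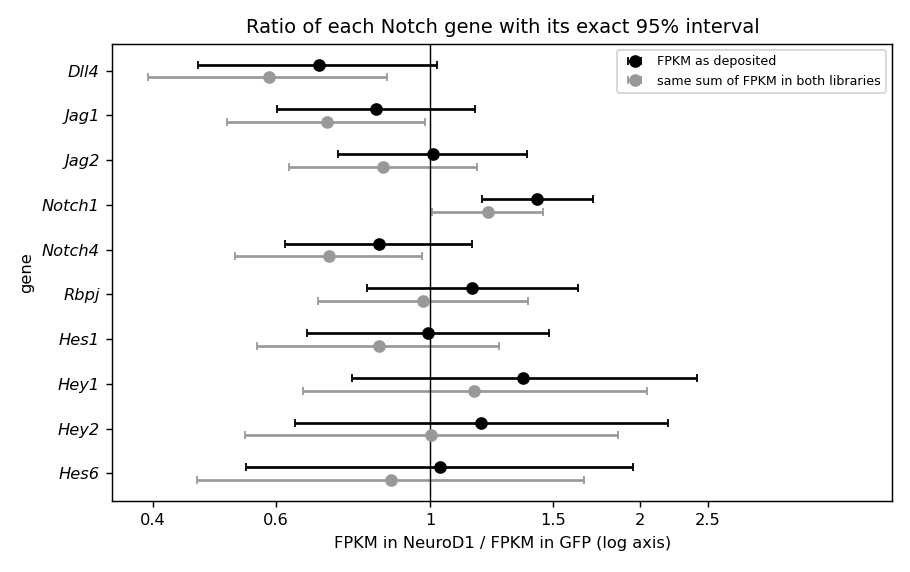
FPKM in NeuroD1 over FPKM in GFP for each Notch gene (log axis), with exact 95% intervals from the reads, for the values as deposited (black) and after equalising the FPKM sums of the libraries (grey). With the deposited values the Notch1 interval alone lies clear of 1. After the scaling, which multiplies every NeuroD1 value by 0.849, those of Dll4, Jag1 and Notch4 lie below 1. No background share is given for that scaling.

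Among the ligands, Dll4 and Jag1 were lower in the NeuroD1 library by their values, with intervals that reached past 1, and Jag2 was level. Dll4, the Delta-like ligand of sprouting and arterial endothelium (ENSMUSG00000027314, GRCm38 chromosome 2, 119325784 to 119335962, plus strand), stood at 5.86 FPKM in NeuroD1 and 8.46 FPKM in GFP, from 44 and 72 reads. Its ratio was 0.692 (95% interval 0.465 to 1.02) and its log2(FPKM + 1) difference -0.46, the lowest of the 10. The NeuroD1 library was thus the lower one for Dll4 by value, with an interval that just included 1.

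Jag1, a Jagged ligand that competes with Dll4 for Notch during sprouting (ENSMUSG00000027276, chromosome 2, 137081456 to 137116644, minus strand), had 5.98 FPKM in NeuroD1 and 7.15 FPKM in GFP, from 68 and 92 reads. Its ratio was 0.837 (0.603 to 1.16). Jag2 (ENSMUSG00000002799, chromosome 12, 112907819 to 112929776, minus strand), the second Jagged ligand, stood at 5.96 FPKM in NeuroD1 and 5.91 FPKM in GFP, with a ratio of 1.01 (0.738 to 1.38). Summed over the 3 ligands the level was 17.8 FPKM in NeuroD1 and 21.5 FPKM in GFP. Dll4 and Jag1 accounted for this gap, since Jag2 was at nearly the same level in both libraries.

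The receptors Notch1 and Notch4 differed in opposite directions by their values. Notch1, the main endothelial receptor for Dll4 (ENSMUSG00000026923, chromosome 2, 26457903 to 26516663, minus strand), reached 9.69 FPKM in NeuroD1 and 6.81 FPKM in GFP. These values rest on 269 and 214 reads, the most of any of the 10 genes. The ratio was 1.42 (1.19 to 1.71) and the log2(FPKM + 1) difference 0.45, the highest of the 10. By FPKM Notch1 stood above all 3 ligands in NeuroD1, while in GFP its order against them was not resolved. By reads Notch1 exceeded each ligand in both libraries, so this order depends on the division by exon length.

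Exons of Notch1 overlap those of 2 genes on the opposite strand, 0610009E02Rik by 1068 bases and Gm13568 by 414 bases. How strand was treated in counting is not given here, so reads of either strand cannot be told apart there. The 2 genes themselves held 7 and 8 reads in NeuroD1 and 5 and 9 reads in GFP. Dll4 shares 214 exon bases with the opposite-strand gene Gm14207, which held 5 reads in NeuroD1 and 6 in GFP.

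Notch4, a receptor largely restricted to endothelium (ENSMUSG00000015468, chromosome 17, 34564268 to 34588503, plus strand), stood at 4.83 FPKM in NeuroD1 and 5.73 FPKM in GFP, from 76 and 102 reads. Its ratio was 0.844 (0.619 to 1.15), so that the direction was not resolved. The sum of both receptors was 14.5 FPKM in NeuroD1 and 12.5 FPKM in GFP, and Notch1 accounted for the higher sum.

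Rbpj, the DNA-binding protein through which cleaved Notch acts (ENSMUSG00000039191, chromosome 5, 53466152 to 53657362, plus strand), stood at 2.82 FPKM in NeuroD1 and 2.45 FPKM in GFP. Its ratio was 1.15 (0.812 to 1.63). Both values lie within the olfactory receptor range, although by reads, 70 and 69, Rbpj was as deeply covered as Jag1 in the NeuroD1 library.

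The intervals of all 3 target genes included 1. Hes1, a repressor induced by Notch in many tissues (ENSMUSG00000022528, chromosome 16, 30064384 to 30067796, plus strand), had 12.6 FPKM in NeuroD1 and 12.7 FPKM in GFP, with a ratio of 0.994 (0.666 to 1.48). Hey1 (ENSMUSG00000040289, chromosome 3, 8663359 to 8667256, minus strand), a repressor of the Hey family with a role in arterial development, stood at 4.71 FPKM in NeuroD1 and 3.47 FPKM in GFP, with a ratio of 1.36 (0.773 to 2.41). The point value of Hey1 was nearly as far from 1 as that of Notch1, but it rests on 30 and 25 reads.

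Hey2 (ENSMUSG00000019789, chromosome 10, 30832359 to 30842801, minus strand), which acts with Hey1 in artery formation, stood at 2.68 FPKM in NeuroD1 and 2.27 FPKM in GFP, with a ratio of 1.18 (0.639 to 2.19). These intervals allow either library to be the higher one, and for Hey1 and Hey2 they do not exclude a 2-fold difference. Summed over the 3 targets the level was 19.98 FPKM in NeuroD1 and 18.4 FPKM in GFP, of which Hes1 made up the larger part in both.

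Hes6, a Hes family member known to oppose Hes1 and to act with proneural factors rather than as a Notch target (ENSMUSG00000067071, chromosome 1, 91411483 to 91414038, minus strand), had 5.96 FPKM in NeuroD1 and 5.76 FPKM in GFP. The reads were 21 and 23 and the ratio 1.03 (0.544 to 1.95). By value its level was thus alike in both libraries, with an interval that still allows a change of nearly 2-fold in either direction. Neurod1 itself had a ratio of 275 (interval 107 to 1010), from 970 reads in NeuroD1 and 4 in GFP. Whether NeuroD1 acts on Hes6 was not tested.

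Ratios of a receptor to a ligand within a library do not depend on how the libraries are scaled against each other. All 6 pairs of a receptor and a ligand were computed, after the single values had been seen, and the 3 pairs with Notch1 share its reads. Notch1 was 1.65 times Dll4 in NeuroD1 (1.20 to 2.33) and 0.804 times Dll4 in GFP (0.613 to 1.07). The quotient of these ratios, NeuroD1 over GFP, was 2.06 with an exact conditional 95% interval of 1.33 to 3.20. Each of these ratios rests on the division by exon length, and by reads Notch1 exceeded Dll4 in both libraries, at 269 against 44 in NeuroD1 and 214 against 72 in GFP. The quotient does not depend on the lengths.

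Notch1 was 1.62 times Jag1 in NeuroD1 and 0.952 times Jag1 in GFP, with a quotient of 1.701 (1.17 to 2.48). For Notch1 and Jag2 the quotient was 1.41 (0.981 to 2.03). The 3 pairs with Notch4 had quotients of 0.837 to 1.22, each with an interval that included 1. Notch1 and Dll4 had the highest and the lowest difference of the 10 genes, so their quotient is a description of that choice, and no share over other gene pairs was computed.

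**Figure D4:**
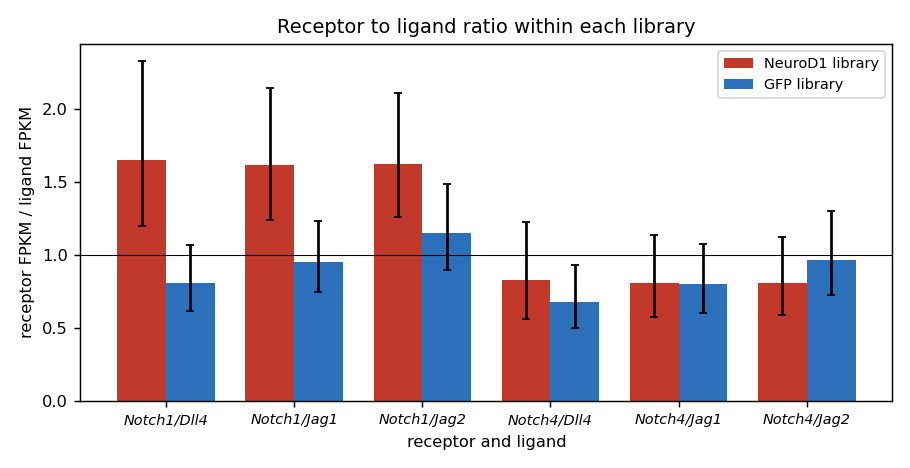
Ratio of receptor FPKM to ligand FPKM for the 6 pairs, in the NeuroD1 library (red) and the GFP library (blue), with bars for exact 95% intervals from the reads and a line at 1. By FPKM, Notch1 exceeds each ligand in NeuroD1 with intervals above 1, while the ratios with Notch4 lie at 0.808 to 0.825 in NeuroD1 and 0.677 to 0.968 in GFP.

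The rest of the pathway was described through 66 other genes grouped by role, of which 65 were measured. The median difference was -0.02 on the log2(FPKM + 1) scale, with 31 of 65 above 0. A 2-fold difference was passed by 1 gene upward, Dlk2, and 1 downward, Hes5, against the same backgrounds of 2.62% and 3.84%. Of 58 with at least 20 reads, 5 had an interval above 1, against a background of 5.93%, and 4 an interval below 1, against 6.22%. The 5 were Dlk2, Ep300, Kat2a, Tle2 and Id2, and the 4 were Poglut1, Snw1, Bhlhe40 and Tle1.

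Among the other ligands and receptors, Dlk2, a Delta-like protein without the usual Notch-activating domain, stood at 4.61 FPKM in NeuroD1 and 1.71 FPKM in GFP (19 and 8 reads, ratio 2.69, interval 1.12 to 7.103). Dll1 stood at 2.43 and 1.61 FPKM, Dll3 at 4.14 and 5.24 FPKM, and Notch3, the receptor of mural cells, at 3.70 and 4.11 FPKM, in NeuroD1 and GFP. None of the 6 genes of this list was above the olfactory receptor range in both libraries. The background was 14.8% of the other protein-coding genes, and 15 of the 65 pathway genes measured outside the 10 were above it. Notch1 and the 3 ligands among the 10 were above that range in both libraries, the ligands narrowly in NeuroD1.

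Of 9 genes for ligand endocytosis and receptor glycosylation, 4 were higher by value in NeuroD1. Poglut1, which adds glucose to Notch repeats, stood at 1.98 FPKM in NeuroD1 and 4.08 FPKM in GFP (ratio 0.485, interval 0.263 to 0.862). The fringe enzymes Lfng, at 2.87 and 3.98 FPKM, and Mfng, at 5.60 and 4.62 FPKM in NeuroD1 and GFP, had intervals that included 1, as had the ubiquitin ligases Mib2 (3.15 and 4.22 FPKM) and Neurl1b (4.21 and 4.36 FPKM).

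Receptor cleavage had a median difference of 0.22, with 6 of 10 above 0. Intervals excluded 1 for 0 of 10, against a background of 12.1%. Adam17, a sheddase, was the most abundant of this list at 19.3 FPKM in NeuroD1 and 16.6 FPKM in GFP (ratio 1.16, interval 0.977 to 1.38), and Adam10, the protease of ligand-induced Notch cleavage, stood at 8.98 and 7.28 FPKM. Aph1b, at 4.07 and 3.16 FPKM, and Aph1c, at 4.04 and 2.96 FPKM, are near-identical copies whose reads may have been split, so their values are uncertain.

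Of 14 nuclear cofactors, 7 were above 0 and the median difference was 0.02. The acetyltransferase Ep300, at 19.3 FPKM in NeuroD1 and 16.9 FPKM in GFP (ratio 1.14, interval 1.01 to 1.29), and Kat2a, at 5.89 and 2.99 FPKM (ratio 1.97, interval 1.15 to 3.45), had intervals above 1. Snw1, a partner of the Rbpj complex, stood at 2.10 FPKM in NeuroD1 and 4.19 FPKM in GFP (ratio 0.501, interval 0.306 to 0.801). Maml3, a Mastermind coactivator, at 2.93 and 2.33 FPKM, and the deacetylase Hdac1, at 7.14 and 8.15 FPKM, had intervals that included 1.

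Among 10 inhibitors and turnover genes, 9 were measured, 6 of them above 0, and no interval excluded 1. Numbl, related to the Notch inhibitor Numb, stood at 8.45 FPKM in NeuroD1 and 8.72 FPKM in GFP. The ubiquitin ligase genes Itch, at 7.02 and 5.83 FPKM, Fbxw7, at 2.62 and 1.86 FPKM, and Dtx3, at 8.37 and 5.28 FPKM (ratio 1.59, interval 0.969 to 2.62), had higher values in the NeuroD1 library. The gene left unmeasured was Nrarp, a feedback target of Notch.

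The other Hes and Hey genes, corepressors and related targets had a median difference of -0.20, with 6 of 17 above 0. Hes5, a Notch target of neural progenitors, had 0 reads in NeuroD1 and 5 in GFP, and the upper limit of its ratio was 1.24, so the 2-fold call for this gene rests on few reads. Id2, an inhibitor of bHLH factors, stood at 15.1 FPKM in NeuroD1 and 9.10 FPKM in GFP (ratio 1.66, interval 1.14 to 2.44), while Id1, at 15.5 and 19.1 FPKM, and Id3, at 21.5 and 16.9 FPKM, had intervals that included 1. Helt stood at 2.29 and 0.900 FPKM from 9 and 4 reads. Named for their intervals after the values were seen, Bhlhe40 stood at 7.30 FPKM in NeuroD1 and 12.03 FPKM in GFP (ratio 0.607, interval 0.444 to 0.823), and the Groucho-type corepressors of Hes and Hey proteins split, Tle2 at 6.51 and 4.51 FPKM and Tle1 at 3.06 and 4.47 FPKM.

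**Figure D5:**
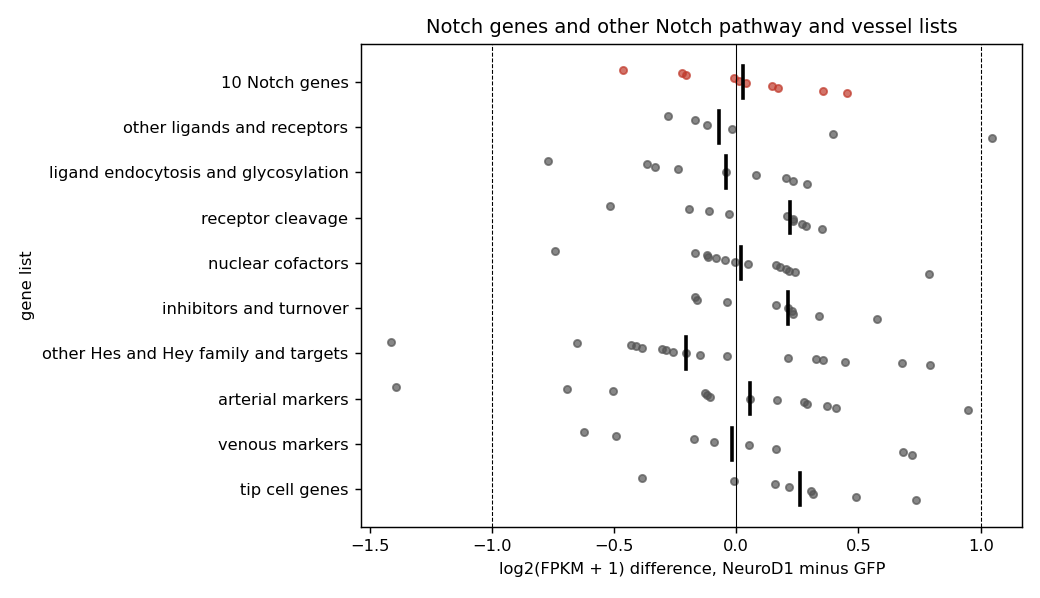
Difference in log2(FPKM + 1), NeuroD1 minus GFP, of each measured gene in the Notch set (red) and in the pathway and vessel lists (grey), with a black bar at each list's median and dashed lines at the 2-fold threshold. The 10 Notch genes lie between -0.46 and 0.45, inside both dashed lines.

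Markers of arterial, venous and tip cell identity were read alongside. Whether Notch governs each of them was not tested. Arterial markers had a median difference of 0.06, with 7 of 13 above 0. Gja4, an arterial gap junction protein, had 2 reads in NeuroD1 and 12 in GFP (ratio 0.189, interval 0.0205 to 0.848). Mgp, a matrix protein, stood at 11.2 FPKM in NeuroD1 and 5.34 FPKM in GFP (ratio 2.10, interval 1.06 to 4.36), Alpl, a phosphatase, at 3.43 and 6.17 FPKM (ratio 0.556, interval 0.337 to 0.897), and Epas1 at 21.2 and 22.9 FPKM. By value arterial genes thus differed in both directions. Of 11 with at least 20 reads, 1 interval lay above 1 (Mgp) and 1 below (Alpl), against backgrounds of 5.93% and 6.22%. Gja4 fell short of that minimum of reads.

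Venous markers had a median of -0.02, with 4 of 8 above 0. The venous receptor Ephb4 stood at 9.61 FPKM in NeuroD1 and 8.49 FPKM in GFP, Tmsb10 at 14.1 and 8.16 FPKM, Slc38a5 at 7.09 and 4.04 FPKM, and the adhesion molecule Icam1 at 4.70 and 7.79 FPKM (ratio 0.604, interval 0.401 to 0.898). Of 8 venous intervals 0 lay above 1 and 2 below, against backgrounds of 5.93% and 6.22%. The 2 were those of Icam1 and of the adhesion molecule Vcam1, at 3.12 FPKM in NeuroD1 and 4.80 FPKM in GFP (ratio 0.651, interval 0.457 to 0.919). Tip cell genes had a median of 0.26, with 6 of 8 above 0. Their intervals excluded 1 for 0 of 7, against a background of 12.1%. In NeuroD1 and GFP, the receptor Kdr stood at 11.2 and 9.98 FPKM, Cd34 at 10.1 and 8.57 FPKM, Esm1 at 5.87 and 3.89 FPKM, Pgf at 3.003 and 1.40 FPKM and Angpt2 at 3.89 and 5.40 FPKM.

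Markers of other cell types were read in both libraries. Mural markers summed to 28.9 FPKM in NeuroD1 and 34.5 FPKM in GFP over 10 genes, 2 of 9 measured ones were above 0, and none was at 0 in either library. Kcnj8, a pericyte channel, had 3 reads in NeuroD1 and 19 in GFP (ratio 0.179, interval 0.0339 to 0.608). Acta2, a smooth muscle actin and the most abundant of the list, went the other way at 10.9 FPKM in NeuroD1 and 7.63 FPKM in GFP, as did Cspg4 at 1.38 and 1.18 FPKM. The sum of the list was lower in NeuroD1, as were Dll4, Jag1 and Notch4 by value, and its part in those differences was not tested.

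Endothelial markers summed to 287 FPKM in NeuroD1 and 257 FPKM in GFP, with a median difference of 0.18 and 11 of 16 above 0. Of 15 intervals, 5 lay above 1 and 0 below, against backgrounds of 5.93% and 6.22%. The lower limits of the 5 were only 1.02 to 1.20. Equal FPKM sums multiply every NeuroD1 value by 0.849, so the sums, the median and these counts depend on the scaling. Erg, an endothelial transcription factor, stood at 16.9 FPKM in NeuroD1 and 12.1 FPKM in GFP (ratio 1.39, interval 1.05 to 1.85), whereas the receptor Tek, at 6.86 and 9.22 FPKM, and Tie1, at 4.48 and 5.80 FPKM, had lower values in NeuroD1. Notch1 was higher by value in the same library, and the part of the endothelial markers in that difference was not tested. Neuron markers summed to 61.3 FPKM in NeuroD1 and 51.8 FPKM in GFP, astrocyte markers to 21.8 and 22.0 FPKM, microglia markers to 40.3 and 40.5 FPKM, and oligodendrocyte markers to 25.6 and 23.9 FPKM. Of the neuron sum, the nuclear protein Rbfox3 alone made up 31.02 FPKM in NeuroD1 and 26.8 FPKM in GFP, near the level of Cldn5, and Tubb3 12.4 and 8.97 FPKM. The most abundant microglia marker was Tyrobp, a signalling adaptor, at 17.7 FPKM in NeuroD1 and 11.5 FPKM in GFP. It went against most of its list, since only 2 of 10 microglia markers were above 0 and their median difference was -0.25. The near-equal microglia sums thus rest on Tyrobp. None of the neuron, astrocyte, microglia or oligodendrocyte markers was at 0. Nor were 93.8% of olfactory receptor rows in NeuroD1 and 95.7% in GFP, so this does not set the markers apart. Above the olfactory receptor range in both libraries were 2 of 10 neuron, 2 of 10 microglia and 0 of 8 measured astrocyte markers. Of measured oligodendrocyte markers 1 of 8 was above it, and of measured mural markers 1 of 9. The background was 14.8% of the other protein-coding genes.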

How the data were processed

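The authors deposited FPKM values for both libraries in 1 table. Per the submitters' processing notes, the tools were featureCounts 1.6.3, Bowtie2 2.3.5.1 and DESeq, and the build was GRCm38, with no role or order given. Strand, multiply mapped reads and molecular identifiers are not given in the sources used here. FPKM times merged exon length (GENCODE M21, GRCm38) is a whole multiple of one step per library, 512.75 in NeuroD1 and 452.70 in GFP, for 95.5% of genes within 0.02 reads, all 10 Notch genes included. The steps differ by a ratio of 1.13, whereas the recovered reads, 2001426 in NeuroD1 and 2011130 in GFP, are nearly equal. The deposited FPKM are thus not scaled by these read totals alone, and how the factor was set is not given here. Scaling by read totals would place every ratio of NeuroD1 over GFP lower. The deposited FPKM were used without further scaling. Differences are log2(FPKM + 1), and ratio intervals are Clopper-Pearson at 95% from the reads, covering counting error only. PCR copies may not be independent molecules. Recovery and intervals were tested on simulated data. The simulated reads carried counting error only and were built with the same steps and exon lengths, so spread between libraries was not covered.

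The members and lists were chosen with earlier results of these data known. All 10 members are named, plus from each other list the up to 3 measured genes with the largest differences and the 2 most abundant, with Neurod1, Pecam1 and Cldn5. The result for 1 gene under this rule is not reported here. A list's marker genes are named only where a result sits beside them. No gene was named for a similar pattern, since each gene has a single ratio. Promoter letters are from RefSeq (GRCm38.p6). Alternatives were other pseudocounts, minimums, scalings, background subtraction, interval levels and olfactory receptor thresholds. Software was matplotlib 3.10.9, pandas 2.3.3, scipy 1.17.1 and numpy 2.4.6 under Python 3.11.15.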

Additional observations from a re-analysis of the deposited data

How the results depend on the processing

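No paired analysis was possible because there is a single library a group, and none could be left out. Across the alternatives, 107 values stayed within their counting interval or count tolerance and 12 moved. With the FPKM sums of the libraries made equal, the median difference was -0.19 over all protein-coding genes, in place of -0.02, and -0.17 over the Notch genes, in place of 0.03, with 3 of 10 above 0. Under it the Notch1 ratio was 1.21 (interval 1.01 to 1.45). An interval below 1 was found for 3 genes, Dll4 (ratio 0.588), Jag1 (0.711) and Notch4 (0.716), against 0 as deposited. The share of all protein-coding genes with such an interval under this scaling is not given here. These 3 intervals are therefore not a result about the Notch genes in particular. The scaling multiplies every gene alike, so quotients of a receptor and a ligand do not depend on it. The differences of Jag2, Hes6 and Rbpj changed sign in 1 setting each and that of Hes1 in 2, and those of Notch1, Dll4, Jag1, Notch4, Hey1 and Hey2 in none. A changed pseudocount cannot change a sign by construction, and the scalings other than equal FPKM sums used factors of only 1.003 and 1.009. A constant sign is thus weak support for a direction. No Notch gene was above the 99th percentile of olfactory receptor rows in both libraries (0 against 6), and 7 were above the 90th. By reads in place of FPKM 7 were above the 95th percentile, with Notch4 and Rbpj in and Hes6 out. Restricting the olfactory receptor rows to protein-coding ones, or to at least 1800 exon bases, both chosen after seeing the data, left the count at 6. Other pathway genes past 2-fold, 1 higher and 1 lower, became 2 and 2 at pseudocount 0.1 or after subtracting the olfactory receptor median, 0 and 0 at pseudocount 5 or a minimum of 5 FPKM, and 0 higher with equal FPKM sums. The minimum changes which genes are counted by construction; otherwise the cause was not tested. Hes6, Hey1 and Hey2 rest on 21 to 30 reads a library, and their intervals reach 1.95 or beyond.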
